A study of Mus musculus with 6 samples.

Results

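The transcripts described here are 36 genes of the p53 pathway and the DNA damage response, measured by RNA-seq in primary cardiomyocytes of neonatal mice. They were taken by name from a list of p53 targets, apoptosis genes, repair genes and checkpoint genes. All 36 were found among the 54532 genes of the table, and all 36 exceeded the mean of 0.5 FPKM (fragments per kilobase of exon, corrected for library size) that 13794 genes met and that was required for testing. In these mice the Rit1 gene was engineered so that Cre recombination turns on M90I, a variant of the small GTPase RIT1. On day 3 after isolation the cultures received an adenovirus that encodes GFP alone (AdGFP, control, labelled Rit1 +/+) or GFP joined with Cre (AdCre, labelled Rit1 M90I/+). RNA was taken at a single time, days after infection, so an earlier response was not measured. Each group held 3 biological replicates, numbered 1 to 3, and both groups carried adenovirus and GFP. Cultures of wild-type cells given AdCre are not analysed here, so Cre and the M90I allele cannot be told apart in any value below.

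Cells that sense a DNA break activate the kinases ATM and ATR, which act through the checkpoint kinases CHK1 and CHK2. The transcription factor p53, encoded by Trp53, is then released from its ubiquitin ligase MDM2, and it switches on genes that halt the cell cycle, repair DNA, limit metabolism or kill the cell. Activity of p53 is set mostly by protein stability, so the mRNAs of its targets are the usual readout of the pathway rather than that of Trp53. Cre recombinase cuts DNA and can act at genomic sequences that resemble its own target, and the comparison of AdCre with AdGFP therefore asks whether this response differs between the cultures. Adult cardiomyocytes rarely divide, whereas neonatal cultures still hold dividing cells.

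Binding elements of p53 were looked for in RefSeq promoter windows (GRCm38.p6), each running from 250 bases before to 50 bases after an annotated start. Windows were given for 27 of the 36 members, 34 windows in all. The element searched was the p53 consensus, a pair of adjacent 10-base arms without a spacer, which reads the same on both strands. With both 4-base cores intact and at most 3 mismatches in the 20 bases, 6 of the 34 windows held it (17.6%), against 0.572% of all 32851 windows. These are matches of letters, not sites shown to bind p53. A match that did not lie wholly before the annotated start of its window is not shown. The 5 matches wholly before the start are shown because they show which members hold these letters there, and their genes are described with values further on. Capitals mark the 20-base element, read on the strand of the gene.
Ckap2: tctgaAGACATGTCCTGACTTGTCAagcct
Aen: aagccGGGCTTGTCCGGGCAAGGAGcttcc
Bbc3: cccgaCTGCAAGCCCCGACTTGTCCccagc
Tigar: gcggcGGTCTAGCTCTGGCAAGACTccagg
Trp53: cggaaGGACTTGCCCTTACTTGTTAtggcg
The elements lie at chr8:22186003-22186022 on the minus strand (Ckap2, 2 mismatches), chr7:78895937-78895956 (Aen, 3), chr7:16309486-16309505 (Bbc3, 3), chr6:127109746-127109765 on the minus strand (Tigar, 3) and chr11:69580284-69580303 (Trp53, 3). They begin 203, 121, 97, 213 and 75 bases before the RefSeq transcript start of their window. GENCODE places the start of Aen and of Bbc3 upstream of that, at 78895854 and 16308393, so these matches lie inside the GENCODE genes. None of these 5 genes passed the test between the groups, with or without pairing of the samples.

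Read totals, recovered from the FPKM steps, ranged from 25.28 to 26.55 M (M, megareads) in AdGFP and from 25.98 to 32.43 M in AdCre, and the lowest member count was 42 reads, for Ddb2. The engineered gene Rit1 had a mean of 8.55 ± 0.774 FPKM in the AdGFP samples against 9.19 ± 0.351 in the AdCre samples (± SD, n = 3 each), with both alleles counted together. The labelled cell type was checked against 10 cardiomyocyte markers, which were all expressed, with a summed level of 6989 to 12207 FPKM in AdGFP and 4142 to 6053 FPKM in AdCre. Fibroblast markers (8 of 8 tested) summed to 2589 to 4644 FPKM in AdGFP and 2272 to 3324 FPKM in AdCre, so the cultures also held other cells. Endothelial markers (7 of 7 tested) summed to 34.9 to 62.7 and 47.3 to 82.8 FPKM, and macrophage markers (5 of 6 tested) to 12.9 to 54.5 and 26 to 67 FPKM. Smooth muscle and pericyte markers (6 of 6) summed to 817 to 1310 FPKM in AdGFP and 973 to 1204 FPKM in AdCre. Dividing-cell markers (10 of 10) summed to 131 to 141 FPKM in AdGFP and 151 to 182 FPKM in AdCre. Interferon response genes (8 of 8) summed to 27.7 to 66.3 FPKM in AdGFP and 56.2 to 287 FPKM in AdCre. No tested marker was at 0 in every sample, and the part of these shifts in the values of the members was not tested. In bulk RNA, fewer cells of a type and less RNA per cell cannot be told apart.

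Most of the 36 members differed little between AdCre and AdGFP. The largest difference was that of Sfn, the cell cycle inhibitor 14-3-3 sigma, whose mean was 13.3 ± 1.01 FPKM in control cells against 26.5 ± 9.15 FPKM with Cre (n = 3 each). Sfn did not pass the adjusted threshold without pairing by replicate number (limma adjusted p 0.287) and passed with it (0.0284). Ei24 and Pmaip1 had the next highest differences with an unadjusted p under 0.05, and Ddit4 and Gadd45a the lowest, none of them past the adjusted threshold. Among well-known p53 targets in the list, the log2 differences were 0.08 for Mdm2, 0.06 for Ccng1, -0.10 for Bbc3, 0.21 for Phlda3, 0.32 for Bax and 0.55 for Pmaip1. None of these was past the adjusted threshold in the fit without pairing or with it. Outside the list Cdkn1a, at 0.48, passed with pairing (limma adjusted p 0.373 without it and 0.0328 with it). It was among 9 of 32 other p53 targets that passed with pairing, described further on. Over the 36 members the log2 difference, AdCre against AdGFP on log2(FPKM + 0.1), had a median of 0.08, beside -0.0022 over all 13794 genes tested. The median size of the difference without regard to sign was 0.16 in the members and 0.17 in all genes.

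In limma fits across all genes without pairing, 0 of 36 members had an adjusted p under 0.05, where 0.00725% of all genes tested (1 gene) passed. Their smallest adjusted p was 0.287. At an unadjusted p under 0.05 there were 5 members, 3 higher and 2 lower in AdCre, beside 10.2% of all genes tested. With the replicate number fitted as a block, 1 member passed (Sfn, higher in AdCre), beside 6.15% of all genes (848 genes) with 2.64% higher and 3.51% lower. The same block called 3 members, Sfn, Ei24 and Pmaip1, when voom was run on the recovered reads, where 12.3% of all genes passed (7.11% higher), and Sfn alone after rescaling to TPM, where 6.34% passed (3.9% higher). The block called 0 members without pair 2, without pair 3, without a trend or without a filter on low values. In 5 members the groups were fully separated, with Sfn, Ei24, Ddb2 and Atm higher and Ddit4 lower, beside 15.4% of all genes (7.36% higher and 8.02% lower). With the block 7 members had an unadjusted p under 0.05, beside 3414 of all 13794 genes. After rescaling to TPM it was 14 members beside 3644 genes, and with voom 13 beside 3879. In those rescaled and voom fits the share of the members was above that of all genes. It was also above it at an unadjusted p without the block, and for full separation with AdCre higher. By the other counts it was near the share of all genes or below it. The 95% interval of the difference lay inside a 2-fold change in either direction for 31 of 36 members (86.1%), beside 74.4% of all genes tested, so for these a larger difference was outside the interval. The others were Pmaip1, Ddb2, Gdf15, Gadd45a and Sfn, of which Pmaip1 and Gdf15 also lay inside it with the block (33 of 36).

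**Figure D1:**
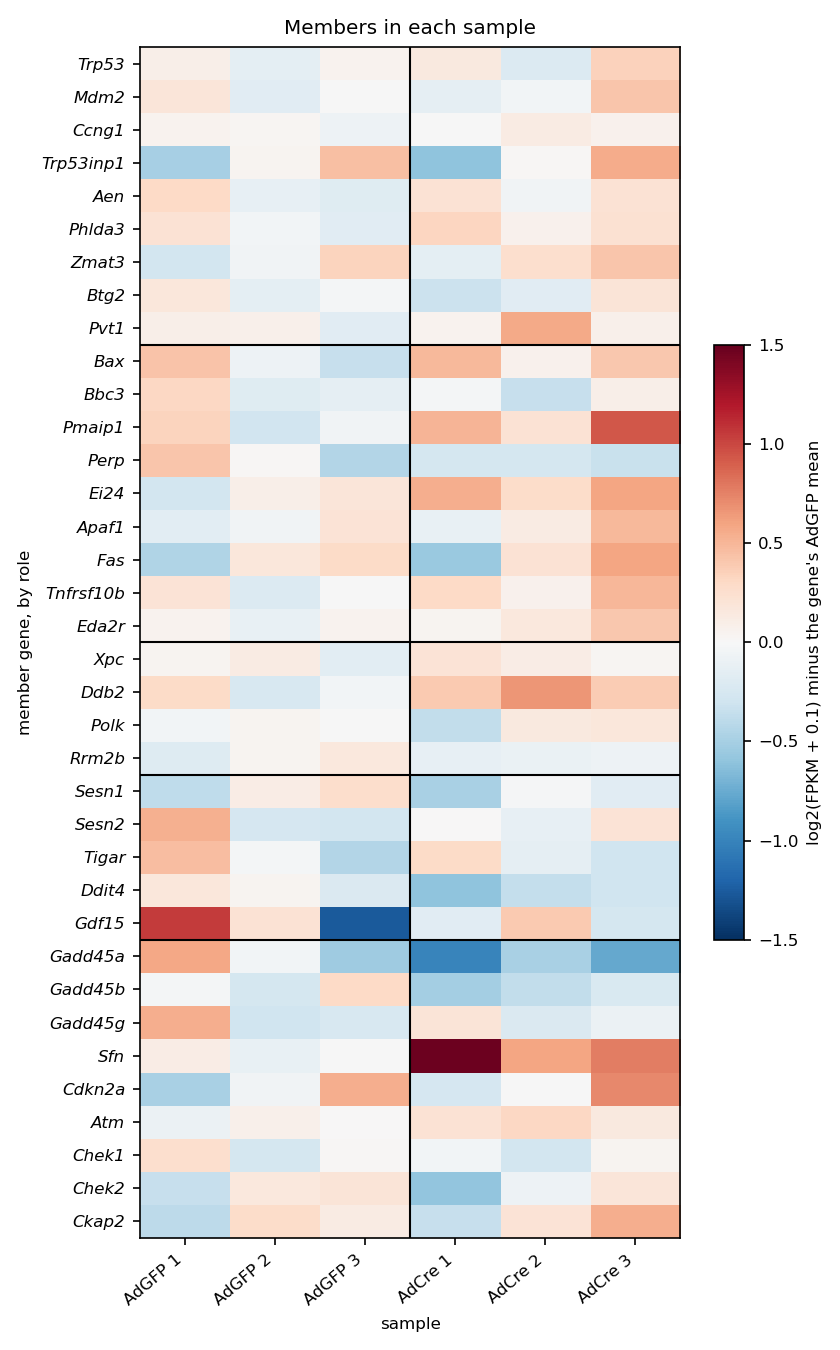
Each row is a member, grouped by role in the order p53 and its feedback, apoptosis and death receptors, repair and nucleotide supply, metabolism and stress, and growth arrest and checkpoint. Colour gives log2(FPKM + 0.1) in each of the 6 samples minus the mean of the gene over the 3 AdGFP samples. Sfn is red in all 3 AdCre samples, whereas rows such as Trp53inp1, Fas and Cdkn2a have the same order of colours over replicates 1 to 3 in both groups.

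**Figure D2:**
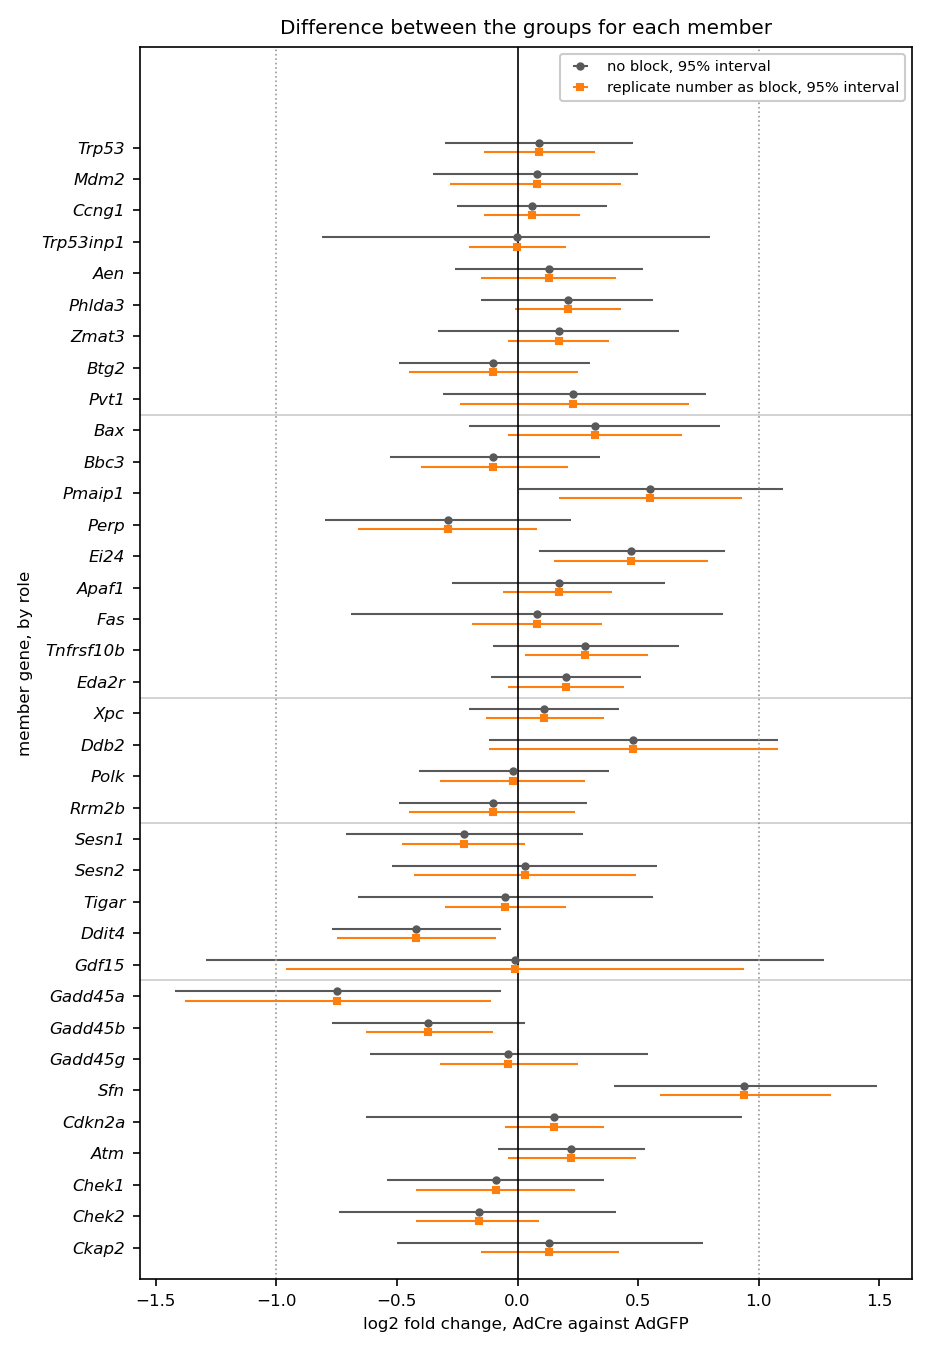
Points give the log2 fold change of each member, AdCre against AdGFP, with 95% intervals from the limma fit without a block (grey circles) and with the replicate number as a block (orange squares). The solid line marks no difference and the dotted lines a 2-fold change. Sfn, at 0.94, lies farthest to the right and Gadd45a, at -0.75, farthest to the left.

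Among p53 and the genes of its feedback, 0 of 9 passed in either fit, and the list had a median log2 difference of 0.09. Trp53 (chromosome 11, 69580359 to 69591873, GRCm38) was at 21.5, 18.3 and 21 FPKM in AdGFP 1 to 3 and at 22.3, 17.5 and 25.7 FPKM in AdCre 1 to 3. The groups overlapped, and the log2 difference with its standard error, given in this form from here on, was 0.09 ± 0.16 (limma adjusted p 0.912). Without AdCre replicate 3 the difference of Trp53 was -0.03. Of its transcript words of 50 bases, 3.95% also occur in other genes, mostly the pseudogene Trp53-ps. Mdm2 (chromosome 10, 117688875 to 117710758), the ubiquitin ligase that p53 induces against itself, was at 41, 32.1 and 35.9 FPKM in AdGFP and at 32.9, 35 and 48.1 FPKM in AdCre. Its highest and second-highest samples belonged to different groups, AdCre 3 and AdGFP 1. Its log2 difference was 0.08 ± 0.18 (limma adjusted p 0.944), and -0.09 without AdCre replicate 3.

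Ccng1, which encodes cyclin G1 and is a direct p53 target, was the most abundant member per length. It was at 300, 295 and 274 FPKM in AdGFP and at 288, 314 and 303 FPKM in AdCre, a log2 difference of 0.06 with a 95% interval from -0.25 to 0.37. Phlda3, a p53 target that restrains AKT, came next in level, with means of 118 ± 16.5 and 136 ± 11.7 FPKM in the control and Cre samples. The groups overlapped for both genes. Aen, a nuclease that p53 induces in apoptosis, was at 12.7 ± 2.46 and 13.8 ± 1.5 FPKM, and Zmat3, an RNA-binding p53 target, at 10.4 ± 2.31 and 11.7 ± 2.28 FPKM. Btg2, an antiproliferative p53 target, was at 37.4 ± 4.24 and 35.1 ± 6.69 FPKM. The long noncoding RNA Pvt1 was at 1.09 ± 0.117 and 1.31 ± 0.294 FPKM, and 1 of its AdCre samples, replicate 2, lay above the others at 1.65 FPKM.

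Trp53inp1, which encodes a stress-induced partner of p53, followed the replicate number and not the virus. It was at 11.1, 16.1 and 21.5 FPKM in AdGFP 1 to 3 and at 10.3, 15.9 and 23.1 FPKM in AdCre 1 to 3. Within the 3 pairs its log2 differences were -0.10, -0.02 and 0.11. Variation between the replicate numbers held 99% of its variance over the 6 samples, and variation between the groups 0.00129%.

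Genes of apoptosis and the death receptors had a median log2 difference of 0.20, with 7 of 9 higher in AdCre and 0 of 9 past the adjusted threshold in the fits with and without the block. Ei24 (chromosome 9, 36779159 to 36797393), a p53-induced gene whose product sits in the endoplasmic reticulum, was at 11, 14.1 and 15.1 FPKM in AdGFP and at 19.4, 16.1 and 20.1 FPKM in AdCre. The lowest AdCre sample exceeded the highest AdGFP sample. The log2 difference was 0.47 ± 0.16 (limma adjusted p 0.393, and 0.0931 with the block), and over the alternatives the adjusted p ran from 0.0201, with block and voom, to 0.874. Antisense exons of other genes cover 6.66% of its exon bases, and the strand setting of the counting is not given in the sources used here. Pmaip1 (chromosome 18, 66458533 to 66465565) encodes NOXA, a BH3-only protein that p53 induces to start mitochondrial apoptosis. It was at 14.1, 9.13 and 10.8 FPKM in AdGFP and at 16, 13 and 21.4 FPKM in AdCre, so that AdCre 2 lay below AdGFP 1. In each of the 3 pairs AdCre was the higher sample, by 0.18, 0.50 and 0.98 on the log2 scale. Its mean log2 difference was 0.55 ± 0.23 (limma adjusted p 0.487, and 0.0984 with the block). The blocked fit called it without pair 1 (0.0329) and with voom (0.0221), and the difference was 0.36 without AdCre replicate 3.

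The other BH3-only gene of the list, Bbc3 (PUMA), had a small difference of the opposite sign. Its levels were 18.5, 13.1 and 13.5 FPKM in AdGFP and 14.6, 11.7 and 15.8 FPKM in AdCre, with a log2 difference of -0.10 and a 95% interval from -0.53 to 0.34. Without AdGFP replicate 1 the difference was 0.06. Bax, the pore-forming effector of mitochondrial apoptosis, had means of 46.3 ± 13 and 56.9 ± 8.4 FPKM. Most of that came from pair 3, where AdGFP was at 35.4 and AdCre at 60 FPKM, a log2 difference of 0.76 beside 0.06 and 0.14 in pairs 1 and 2. Exons of another gene on the same strand cover 12.2% of the exon bases of Bax. Perp, a membrane protein of p53-dependent death and of desmosomes, was at 90.5, 68.7 and 49.7 FPKM in AdGFP and between 53.6 and 56.3 FPKM in the AdCre samples, a log2 difference of -0.29 (limma adjusted p 0.731). Apaf1, the scaffold of the apoptosome, was at 6.47 ± 0.867 and 7.34 ± 1.57 FPKM.

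None of the 3 death receptors passed in either fit, and the groups overlapped for each. Tnfrsf10b (chromosome 14, 69767472 to 69784411), the receptor of the ligand TRAIL, was at 11.3, 8.43 and 9.73 FPKM in AdGFP and at 12, 10.2 and 13.8 FPKM in AdCre. The log2 difference was 0.28 ± 0.16 (limma adjusted p 0.634), positive in all 3 pairs. Eda2r (chromosome X, 97333840 to 97377216), a p53-induced receptor of ectodysplasin A2, was at 17, 15.1 and 17 FPKM in AdGFP and at 16.8, 18.3 and 21.6 FPKM in AdCre. Its log2 difference was 0.20 ± 0.13 (limma adjusted p 0.682), and 0.10 without AdCre replicate 3. Fas was at 5.71 ± 1.47 and 6.22 ± 2.35 FPKM (n = 3 each) and, like Trp53inp1, differed mainly between replicate numbers, which held 94.8% of its variance. Its log2 difference was 0.08, and -0.15 without AdGFP replicate 1 and -0.17 without AdCre replicate 3.

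**Figure D3:**
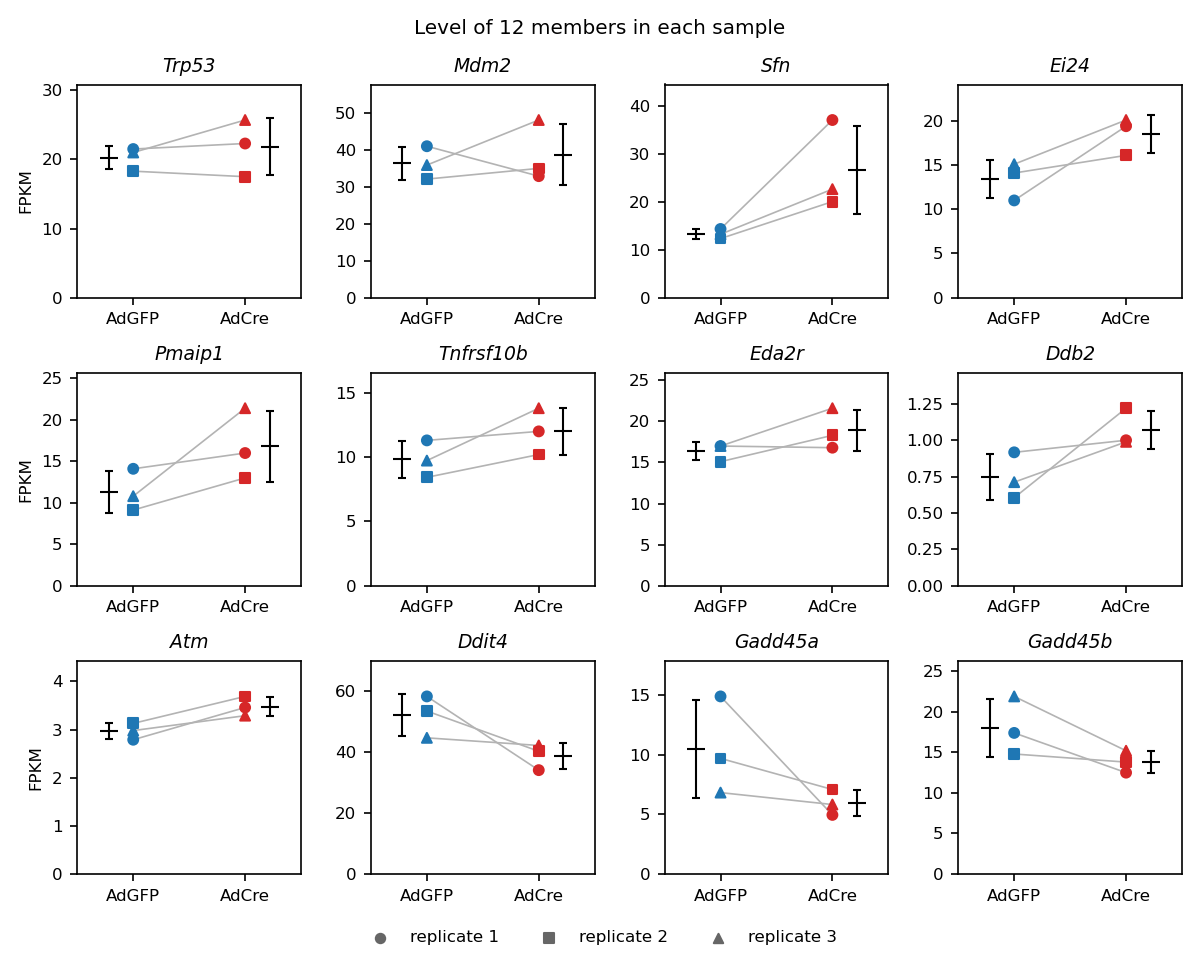
FPKM of 12 members in each sample, with AdGFP in blue and AdCre in red, on axes that start at 0. Grey lines join samples with the same replicate number, and the bars beside the points give the mean and SD of each group (n = 3). The groups do not overlap for Sfn, Ei24, Ddb2, Atm and Ddit4, and do overlap for the other 7.

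The 4 genes of repair and nucleotide supply did not pass in either fit and had a median log2 difference of 0.05. Ddb2 (chromosome 2, 91211572 to 91236982), a sensor of ultraviolet lesions, was the least abundant member per length. It was at 0.917, 0.605 and 0.712 FPKM in AdGFP and at 1, 1.22 and 0.989 FPKM in AdCre. The groups did not overlap, and the log2 difference was 0.48 ± 0.25 (limma adjusted p 0.599). Antisense exons of other genes cover 23.8% of its exon bases, and 17.8% of its 50-base words are shared with other genes, mostly Acp2. Xpc, which recognises helix distortion in nucleotide excision repair, was at 4.36 ± 0.447 and 4.71 ± 0.287 FPKM. Polk, a polymerase that bypasses lesions, was at 8.83 ± 0.253 and 8.85 ± 1.77 FPKM. Rrm2b, the p53-induced subunit of ribonucleotide reductase, was at 2 ± 0.253 and 1.85 ± 0.0366 FPKM. For these 3 genes the 95% intervals lay between -0.49 and 0.42 on the log2 scale.

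Genes of metabolism and stress had a median log2 difference of -0.05, and 0 of 5 passed. Ddit4 (chromosome 10, 59949669 to 59951834) encodes REDD1, an inhibitor of mTORC1 that damage, hypoxia and glucocorticoids induce. It was at 58.3, 53.5 and 44.7 FPKM in AdGFP and at 34.1, 40.3 and 42.2 FPKM in AdCre, with every AdCre sample below every AdGFP sample. The log2 difference was -0.42 ± 0.15 (limma adjusted p 0.416, and 0.131 with the block). Its pair differences were -0.77, -0.41 and -0.08. Sesn1 and Sesn2 encode sestrins, which p53 induces and which also restrain mTORC1. Sesn1 was at 7.6 ± 1.69 and 6.44 ± 1.05 FPKM, lower in AdCre in all 3 pairs, whereas Sesn2 was at 29 ± 9.85 and 28.7 ± 3.43 FPKM. The wide spread of Sesn2 in AdGFP came from replicate 1, at 40.4 FPKM, beside 23.5 and 23.1 FPKM in the others. Tigar, a phosphatase that diverts glucose to the pentose phosphate pathway, was at 7.32 ± 2.35 and 6.94 ± 1.52 FPKM.

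Gdf15, a secreted stress cytokine that p53 and the integrated stress response both induce, was the most variable member. It was at 58.8, 32.9 and 11.8 FPKM in AdGFP and at 25.3, 37.3 and 23.7 FPKM in AdCre. The 3 AdCre samples lay inside the range of the AdGFP samples, and pair differences were -1.22, 0.18 and 1 on the log2 scale. Its 95% interval ran from -1.29 to 1.27, and the difference was 0.51 without AdGFP replicate 1 and -0.64 without AdGFP replicate 3. With the block the interval ran from -0.96 to 0.94.

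The growth arrest and checkpoint genes held both the highest and the lowest difference of the list. Sfn (chromosome 4, 133600556 to 133602168) was at 14.3, 12.3 and 13.2 FPKM in AdGFP and at 37, 20 and 22.6 FPKM in AdCre. All AdCre samples were above all AdGFP samples, and the AdGFP samples lay close together. The log2 fold change was 0.94 ± 0.23 (limma adjusted p 0.287). With the block Sfn passed (0.0284), and its pair differences were 1.37, 0.70 and 0.77. The adjusted p over all alternatives ran from 0.00224, with block and voom, to 0.791, without AdGFP replicate 2. Under the block it did not pass without pair 2 (0.0617), without pair 3 (0.112), without a trend (0.0906) or without a filter (0.0956), and without AdCre replicate 1 the unpaired fold change was 0.68. Other genes, mostly the pseudogene Gm7850, share 15% of its 50-base words.

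Sfn is also a gene of stratified epithelium, so epithelial and mesothelial markers were set beside it, a list of 12 chosen after the values of Sfn were seen. The list summed to 251 to 388 FPKM in AdGFP and 397 to 509 FPKM in AdCre, with 8 of 12 higher in AdCre. Without the block 0 of 12 passed. With it 2 of 12 passed, both higher in AdCre, beside 2.64% of all genes in that direction. Those were the keratins of simple epithelium Krt8 and Krt18. Krt8 was at 22.4, 47.5 and 75.1 FPKM in AdGFP and at 101, 109 and 158 FPKM in AdCre, and Krt18 at 156, 85.4 and 80.4 FPKM in AdGFP and at 204, 171 and 191 FPKM in AdCre. Epcam, an adhesion molecule of epithelium, was at 0.0793, 4 and 7.38 FPKM in AdGFP and at 1.52, 6.04 and 11.9 FPKM in AdCre. It was the higher in AdCre in each pair, by 3.17, 0.58 and 0.68 on the log2 scale, as was Cdh1 (E-cadherin), by 1.28, 0.50 and 0.47. Krt5, a keratin of stratified epithelium, was at 0, 5.87 and 1.55 FPKM in AdGFP and at 0.0711, 4.9 and 1.61 FPKM in AdCre. Krt19 was at 133, 33.8 and 17.3 FPKM in AdGFP and at 74.2, 64.5 and 34 FPKM in AdCre, highest in replicate 1 of each group. The mesothelial markers Msln, Upk3b, Upk1b and Wt1 had log2 differences of -1.08, -0.66, -0.15 and -0.38, none past the threshold in either fit. The part of epithelial or mesothelial cells in the values of Sfn was not tested.

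The GADD45 proteins are small stress sensors that bind PCNA and kinases of the MAPK pathways, and the first of them is a p53 target. Gadd45a (chromosome 6, 67035096 to 67037457) was at 14.9, 9.7 and 6.83 FPKM in AdGFP and at 4.96, 7.09 and 5.83 FPKM in AdCre. AdCre 2 lay above AdGFP 3, so the groups overlapped. The log2 difference was -0.75 ± 0.29 (limma adjusted p 0.448, and 0.15 with the block), and it was -0.46 without AdGFP replicate 1. Antisense exons cover 19.1% of the exon bases of Gadd45a, and 15.6% of its words are shared, mostly with E230016M11Rik. Gadd45b (chromosome 10, 80930073 to 80932204) was at 17.4, 14.8 and 21.9 FPKM in AdGFP and at 12.5, 13.8 and 15.2 FPKM in AdCre. AdCre was lower in all 3 pairs, with a log2 difference of -0.37 ± 0.17 (limma adjusted p 0.52). Gadd45g was at 79.6, 44.4 and 46.3 FPKM in AdGFP and at 62.4, 47.2 and 51.6 FPKM in AdCre, with a log2 difference of -0.04 whose sign turned under other scalings. The family thus had log2 differences of -0.75, -0.37 and -0.04, none of which passed in the unpaired or the blocked fit.

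The kinases upstream of p53 did not pass in either fit. Atm (chromosome 9, 53439149 to 53536740), the kinase that responds to double-strand breaks, was at 2.79, 3.13 and 2.98 FPKM in AdGFP and at 3.46, 3.69 and 3.29 FPKM in AdCre. The groups did not overlap, and the log2 difference was 0.22 ± 0.13 (limma adjusted p 0.638). Chek1 was at 2.31 ± 0.426 and 2.15 ± 0.25 FPKM, and Chek2 at 4.82 ± 0.966 and 4.34 ± 1.15 FPKM (n = 3 each). Ckap2, a spindle protein of dividing cells and a p53 target, was at 9.8, 15.7 and 14.1 FPKM in AdGFP and at 10.2, 14.9 and 18.9 FPKM in AdCre. Cdkn2a, whose transcripts encode the inhibitors p16INK4a and p19ARF, was at 7.56, 10.3 and 15.6 FPKM in AdGFP and at 8.98, 10.6 and 17.6 FPKM in AdCre. Gene-level FPKM does not separate those products. Its replicate numbers held 95.8% of its variance, and its mean log2 difference was 0.15 with a 95% interval from -0.63 to 0.93.

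The variance of each member over the 6 samples was split between the replicate numbers, the groups and the rest. Variation between replicate numbers exceeded that between groups for 27 of 36 members (75%), beside 73.7% of all genes tested. The median share between numbers was 50.4% in the members and 59.2% in all genes, and the median share between groups 16.2% and 16%. In 4 members (11.1%), Trp53inp1, Fas, Tigar and Cdkn2a, the replicate numbers held more than 90% of the variance, beside 11.6% of all genes. Summed markers of endothelial cells, interferon response genes, macrophages (12.9, 41.8 and 54.5 FPKM in AdGFP 1 to 3, 26, 54.6 and 67 FPKM in AdCre 1 to 3) and fibroblasts (2589, 3512 and 4644, then 2272, 3043 and 3324 FPKM) took the same order over the numbers as Trp53inp1, Fas and Cdkn2a, and Tigar took the reverse order, as did the summed cardiomyocyte markers. Their part in these members was not tested. The direction of the difference was the same in all 3 pairs for 16 members (44.4%), 11 higher and 5 lower in AdCre, beside 48.4% of all genes.

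**Figure D4:**
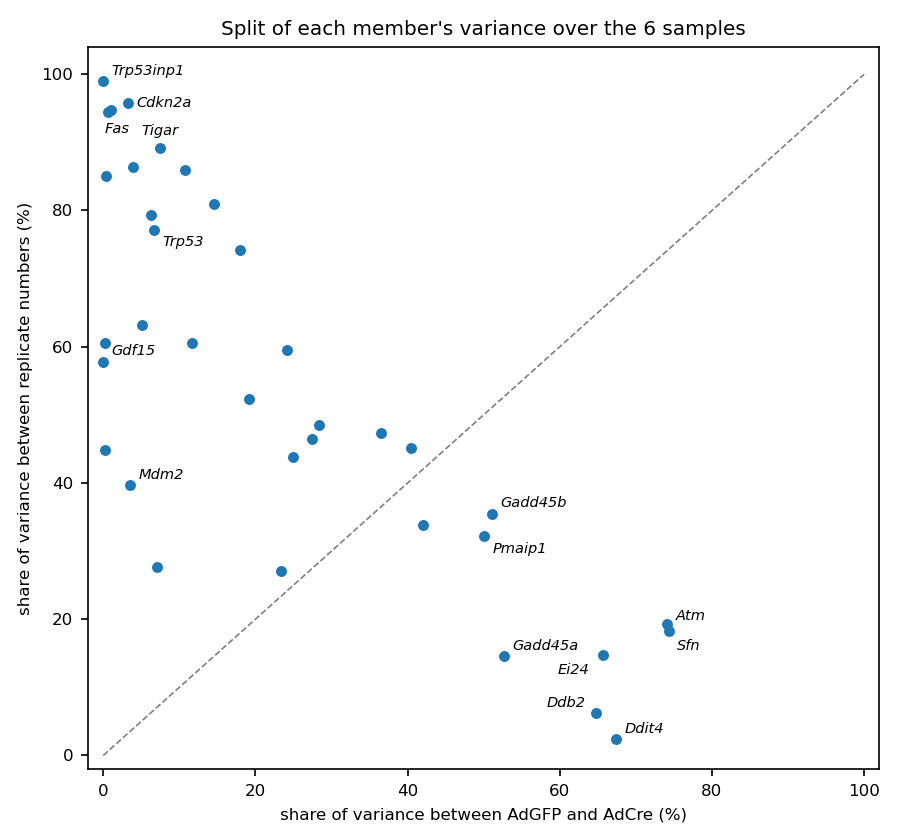
Each point is a member. The horizontal axis gives the share of its variance over the 6 samples that lies between AdGFP and AdCre, and the vertical axis the share between replicate numbers, both in percent, with a dashed line where they are equal. Of the 36 members, 27 lie above the line, with Trp53inp1, Cdkn2a, Fas and Tigar at the top left and Sfn, Atm, Ddit4, Ei24 and Ddb2 at the lower right.

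Other genes of the pathway were read in the same fit. The 32 p53 targets and regulators that are not members had a median log2 difference of 0.31, with 20 higher and 12 lower, and a median of 0.20 without AdCre replicate 3. None passed without the block, where the smallest limma adjusted p was 0.219, and 12 had an unadjusted p under 0.05, 10 higher and 2 lower, beside 10.2% of all genes. The groups were fully separated for 10, with 8 higher and 2 lower, beside 7.36% and 8.02% of all genes. With the block 9 passed, all higher in AdCre, beside 2.64% of all genes in that direction. They were Lif, Notch1, Bid, Dcxr, Plk3, Tgfa, Cdkn1a, Zfp365 and Ppm1d. None of the 9 passed under the block without pair 2, without pair 3, without a trend or without a filter on low values, fits in which 149, 1, 0 and 17 of all genes passed. Of the blocked calls over all genes 42.9% were higher in AdCre, against 61.5% after rescaling to TPM, where 11 of these 32 genes passed, and 57.6% with voom.

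Cdkn1a encodes the CDK inhibitor p21 and is the best known p53 target. It was at 129, 98.2 and 97.5 FPKM in AdGFP and at 164, 142 and 144 FPKM in AdCre, without overlap, with a log2 fold change of 0.48 ± 0.16 (limma adjusted p 0.373, and 0.0328 with the block). Lif, a cytokine of the IL-6 family, had a log2 fold change of 0.97 (limma adjusted p 0.491, and 0.0145 with the block) and went from 5.37 ± 2.95 to 10.2 ± 4.23 FPKM with overlapping groups. Notch1, a receptor of cell fate signaling, had means of 3.58 ± 0.869 and 6.75 ± 1.43 FPKM, a log2 fold change of 0.90 (limma adjusted p 0.291, and 0.0145 with the block). Bid, a BH3-only activator of BAX, went from 2.21 ± 0.532 to 4.2 ± 1.09 FPKM (log2 fold change 0.89, limma adjusted p 0.329, and 0.0227 with the block), with 16.4% of its words shared with other genes, mostly Bcl2l13. Dcxr, a carbonyl reductase, and Plk3, a stress-responsive polo-like kinase, had log2 fold changes of 0.59 and 0.62 (limma adjusted p 0.0235 and 0.0276 with the block). Mdm4, the partner of MDM2 in restraining p53, was at 3.94 ± 0.817 and 3.62 ± 0.891 FPKM. Lif and Tgfa encode secreted growth factors and Notch1 a receptor, each of which is also regulated by pathways other than p53.

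Genes that sense breaks and repair them, 41 in all outside the members, lay nearest to equality. Their median log2 difference was 0.02, with 24 higher and 17 lower, and 0 of 41 passed with or without the block in limma (3 with it and 0 without it at an unadjusted p under 0.05). With block and rescaling to TPM 1 passed, and likewise 1 with block and voom. Their 95% interval lay inside a 2-fold change in either direction for 39 of 41 genes, beside 74.4% of all genes tested. The median of each sample over this list, relative to the AdGFP mean of each gene, lay between -0.03 and 0.03 in all 6 samples. The same quantity over the members was 0.10, -0.04 and -0.0071 in AdGFP 1 to 3 and -0.03, 0.05 and 0.20 in AdCre 1 to 3. Only AdCre 3 lay above the AdGFP samples in that measure, and without it the median difference of the members was -0.02. Over the other p53 targets the quantity was 0.02, -0.03 and -0.03 in AdGFP and 0.12, 0.19 and 0.40 in AdCre. All 3 AdCre samples lay above the AdGFP samples there. AdCre 3 also had the highest sum of interferon response genes, at 287 FPKM beside 56.2 and 108 FPKM in AdCre 1 and 2, and the lowest sum of cardiomyocyte markers, at 4142 FPKM. Their part in these medians was not tested.

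**Figure D5:**
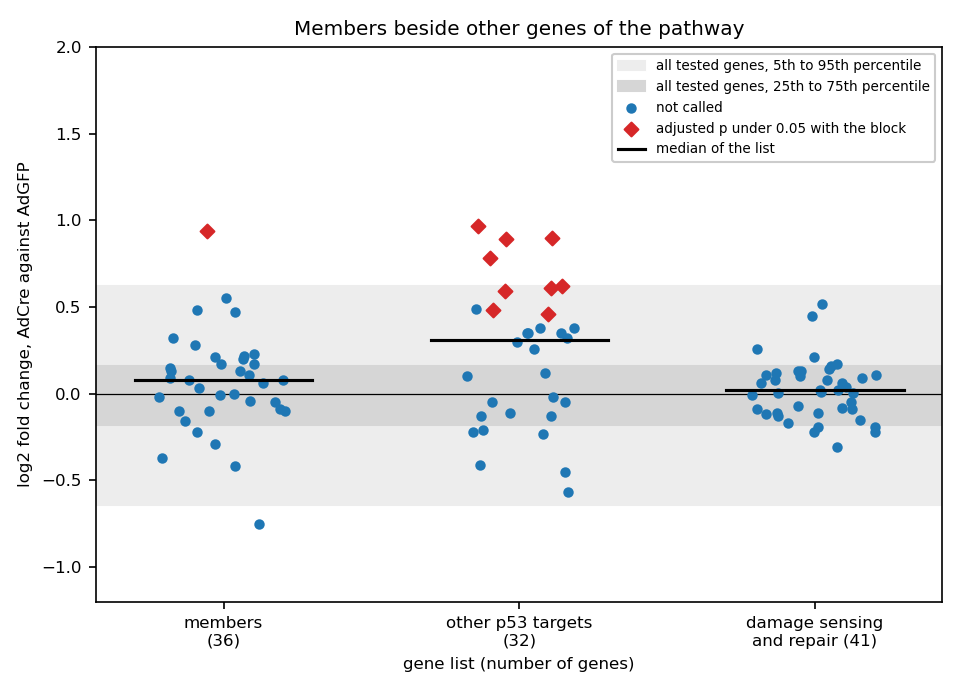
Points give the log2 fold change, AdCre against AdGFP, of each gene in 3 lists, and red diamonds mark those with a limma adjusted p under 0.05 when the replicate number is a block. Grey bands give the 5th to 95th and the 25th to 75th percentile of all 13794 genes tested, and black lines the medians of the lists, 0.08, 0.31 and 0.02.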

How the data were processed

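RNA-seq was performed on 6 samples, 3 AdGFP and 3 AdCre. The deposited table holds FPKM values made by the authors, 1 column per sample, with no pooling. Submitters' processing notes name fastp, STAR 2.5, HTSeq 0.6.1 and mm10, without parameters. Symbols, exon lengths and coordinates came from GENCODE M21 (GRCm38), which holds 54495 of the 54532 gene IDs. Read counts were recovered by dividing FPKM times exon length by the value of 1 read in each sample, which gave whole numbers for 97.3% of values under 1000 reads (tolerance 0.02 reads). Intervals cover the spread between samples, which may be partly technical.

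Values were tested as log2(FPKM + 0.1) with limma 3.58.1 (R 4.3.3, lmFit and eBayes with trend, two-sided) on 13794 genes averaging 0.5 FPKM or more over all samples, adjusted by Benjamini-Hochberg. Differences on this scale understate those of low genes. Genes with an adjusted p below 0.05 are said to pass or to be called. The exact permutation test of 3 against 3 cannot give less than 0.1. Same-numbered samples deviated together (correlations across genes of 0.568, 0.268 and 0.506, and -0.497 to 0.036 for other combinations). The numbers were therefore taken to pair the samples, on the values alone, and blocked values appear beside results whose call changes or whose p is low. Within each group no library was a copy of another (chi-square per degree of freedom between replicates from 39.21 to 125.55). Libraries of different groups were not compared in this way.

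Full statistics are given for Trp53, Mdm2, members called in either fit and the 10 members with the smallest unadjusted p, and from each further list for at most 5 called genes and Cdkn1a. Mdm4 and the epithelial and mesothelial list were named after their values were seen. Members and lists were chosen with earlier results of these data known. The fits were also run on simulated data with independent errors for each gene, which cannot show how stable the blocked calls are in these samples. Alternatives covered pseudocount, filter, biotype, scaling, trend, the block and left-out samples, and the blocked fits with voom or no filter were added after seeing the data. Python 3.11.15, numpy 2.4.6, pandas 2.3.3, scipy 1.17.1 and matplotlib 3.10.9 were used.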

Additional observations from a re-analysis of the deposited data

How the results depend on the processing

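Without the block, 0 members passed under every alternative run, and 1 gene in all passed, 3 with a pseudocount of 1, 4 without a trend, 0 without a filter or with voom, and 0 to 2 when 1 sample was left out. With the replicate block 848 genes passed, 772 without pair 1, 149 without pair 2, 1 without pair 3, 875 after rescaling to TPM, 1703 with voom, 17 without a filter and 0 without a trend (3122 at an unadjusted p under 0.05). Members called with the block numbered 1, 2 without pair 1, 1 after rescaling to TPM and 3 with voom, and 0 without pair 2, pair 3, a trend or a filter. Among the other p53 targets 9 passed with the block, 9 without pair 1, 11 after rescaling to TPM and 14 with voom, and among the damage genes 1 after rescaling to TPM and 1 with voom. The median of the members was -0.02 to 0.12 when 1 sample was left out, and that of the other p53 targets 0.20 to 0.32. Rescaling to TPM moved the medians to 0.17 for the members, 0.40 for the other p53 targets, 0.11 for the damage genes and 0.09 for all genes. With voom the members were at 0.13 and all genes at 0.06. The causes were not tested. Of 862 refits of a member, 784 kept direction and side of the threshold, 7 passed where the unpaired fit did not, and 71 turned sign, none of these past the threshold.

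Signs turned after rescaling to TPM, with or without the block, for Trp53inp1 (0.09), Polk (0.07), Tigar (0.04), Gdf15 (0.08) and Gadd45g (0.05). With voom they were 0.06, 0.04, 0.02, 0.04 and 0.03, and with block and voom Trp53inp1, Polk and Gadd45g were at 0.06, 0.05 and 0.01. Median centring gave 0.0096 for Trp53inp1 and 0.0024 for Gdf15, and quantile normalization 0.01 for Trp53inp1, 0.0042 for Polk, 0.04 for Gdf15 and 0.02 for Gadd45g. Under the block without pair 1, Trp53inp1 was at 0.05, Btg2 at 0.10, Bbc3 at 0.03, Polk at 0.14, Tigar at 0.02, Gdf15 at 0.59, Gadd45g at 0.12 and Chek1 at 0.0059. Without pair 2, Trp53inp1 was at 0.0035 and Sesn2 at -0.02. Without pair 3, Trp53 was at -0.0038, Mdm2 at -0.10, Aen at -0.0059, Fas at -0.03, Sesn2 at -0.20 and Ckap2 at -0.0099.

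When 1 sample was left out, the log2 difference ran from -0.03 to 0.24 for Trp53, from -0.09 to 0.18 for Mdm2, from -0.28 to 0.29 for Trp53inp1, from -0.25 to 0.01 for Btg2, from -0.19 to 0.06 for Bbc3, from -0.17 to 0.40 for Fas, from -0.11 to 0.16 for Polk and from -0.11 to 0.29 for Sesn2. It ran from -0.27 to 0.18 for Tigar, from -0.64 to 0.51 for Gdf15, from -0.19 to 0.23 for Gadd45g, from -0.13 to 0.42 for Cdkn2a, from -0.22 to 0.03 for Chek1, from -0.34 to 0.05 for Chek2 and from -0.07 to 0.37 for Ckap2. Depth limits Ddb2 most, at 42 reads in its lowest sample.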
